A study of Mus musculus with 2 samples.

Results

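The regions described here are the peaks found with the odd ChIRP probes alone at the promoters of protein-coding genes. They were selected from the odd peak list by 4 conditions, namely a position on chromosomes 1 to 19, a pileup under 30, no overlap of even 1 bp with any even peak, and a summit at most 1000 bp from an annotated transcription start of a protein-coding gene. There were 987 such peaks among the 14261 odd peaks (6.92%) and the 17898 peaks of both lists. The pileup is the number of extended sequencing tags stacked at the summit, and the starts are those of all GENCODE vM21 transcripts of protein-coding genes, non-coding transcripts included. The peak's height, its absence from the even list and the distance of its summit from a start were used to choose the members. These values are therefore given as a description only.

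The chromatin came from primary hepatocytes of 4 female wild-type C57BL/6 mice aged 8 weeks, pooled and fixed for 10 min in 3% formaldehyde. The lysate was then pulled down with 7 odd-numbered or 7 even-numbered probes against the liver lncRNA *Gm19619*, giving 1 library each. No input or mock library entered the peak calling. All mice were untreated, so no comparison between metabolic states was possible. After duplicates were removed, 6972538 reads remained in the odd and 7052802 in the even library, 11.4% and 10.7% of those mapped. Peak lists hold no expression values, so the cell type could not be checked against marker genes.

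In ChIRP, short biotinylated DNA oligonucleotides antisense to an RNA are used to pull the RNA out of fixed chromatin together with the DNA cross-linked nearby. The probes are usually split into 2 sets that share no sequence, because DNA brought down by the RNA should appear with both sets, whereas DNA that pairs with a probe itself should appear with one set only. Promoters are the stretches around transcription starts. In mammals many are rich in CpG dinucleotides and GC, lie in open chromatin and carry the sites of general transcription factors.

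The sequences of the probes are needed to read the peaks. Probe letters are shown as the genome holds them at the exact probe site in *Gm19619* on the plus strand of chromosome 5 (GRCm38/mm10). *Gm19619* is read from the minus strand, so these letters are antisense to the RNA. Probe 5 has no exact site, and its line gives the 18 bases of its 19 that match in one run.
probe 1, chr5:91283023-91283042: aaggagagtgaagtggcagt
probe 3, chr5:91273978-91273997: tgtgccatgtgaaagcagag
probe 5, chr5:91273773-91273790: gaaaagacccggacttgg
probe 7, chr5:91258494-91258513: gggaactgagctgtgagatg
probe 9, chr5:91258311-91258330: ctatgggttctggacagctc

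A run is defined here as a stretch of consecutive bases, on either strand of the peak, identical to part of a probe. The members below carry the longest run of probes 1, 3 and 7, and for probe 9 a run of 14 bases. They are printed as 30 bases in the direction of the probe, with the run in capitals, so that the capitals can be found in the probe's line above.
*Hrasls*, probe 7, chr16:29209722-29209751, plus strand: ctgggctGGAACTGAGCTGTGAGcaggcga
*Mef2c*, probe 7, chr13:83575549-83575578, plus strand: gggatttGGGAACTGAGCTGTGcgcgtgct
*Bmpr2*, probe 3, chr1:59851851-59851880, minus strand: catctatgCATGTGAAAGCAGAGaaaaggg
*Ttll11*, probe 3, chr2:35945076-35945105, plus strand: aagctagCATGTGAAAGCAGAGagtcttgc
*Cpne7*, probe 1, chr8:123129478-123129507, minus strand: aggttcccAGGAGAGTGAAGTGGaccctgg
*Vamp5*, probe 9, chr6:72372681-72372710, plus strand: cttttcacATGGGTTCTGGACAtgtgacct
The flanking bases differ from member to member, and the runs of *Bmpr2* and *Ttll11* consist of the same 15 bases of probe 3.

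The 6 members with the longest runs were peaks of middle to upper height. *Hrasls*, which encodes a phospholipid-modifying enzyme, held a run of 16 bases, and its peak reached a pileup of 21 with the summit 53 bp downstream of the gene's first start, in the 5′ UTR. The peak at *Bmpr2*, a receptor of bone morphogenetic proteins, reached 27 and lay at an internal start, with its summit 88542 bp into the gene. The peak at *Mef2c*, a MADS-box transcription factor of muscle, reached 25 and also lay at an internal start. Its summit was 71540 bp from the first start. Among the others, a pileup of 24 was reached at *Alpk2*, an alpha kinase gene whose 15 bases match probe 9, and 17 at *Cpne7*, a calcium-dependent membrane-binding protein. At *Ttll11*, a tubulin-modifying enzyme, it was 15. Run centre and summit lay close together at *Hrasls* and *Mef2c*, 11 bp apart at each, while at *Ttll11* they were 110 bp apart.

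Of the 987 members, 229 (23.2%, 95% Wilson interval 20.7 to 25.9) held a run of at least 12 bases of an odd probe. Among the 11441 other odd-only peaks on the same chromosomes and under the same pileup limit, the percentage was 27.8. A run of that length from an even probe was present in 2 members (0.203%). Within 401 bp centred on the first start of all 20807 protein-coding genes, 0.365% held an odd run and 0.154% an even run, against 23.2% and 0.203% for windows of the same size at the summits of the members. The even-only promoter peaks, chosen by the mirrored rule, gave the opposite pattern. None of these 172 peaks held an odd run, which allows a share of up to 1.74%, and 52 (30.2%) held an even run. These shares are a description, since the rule itself set odd-only against even-only peaks. The letters of even probes 10 and 12, as read from the study's supplement, match *Gm19619* in runs of only 12 and 16 of 19 bases and may be misread, which bears on all shares of even runs. Tests below count peaks or sites of 1 library per probe set and not replicates, and all intervals cover counting error only.

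Taken over all peaks, runs were less frequent at promoters than elsewhere. The odds ratio of members against other odd-only peaks was 0.783 for runs of 12 bases (p = 0.00178 in a two-sided Fisher exact test). It lay between 0.599 and 0.786 for minimum lengths of 10, 11, 13 and 14 bases. Base composition moved with this difference. The median GC content was 52.1% in the members (quartiles 46 and 59.3) and 45.1% in the other odd-only peaks (quartiles 40.5 and 49.4). Peaks were then divided into 5 bands of GC content, a division added after the data were seen. The difference passed the test in none of them (Benjamini-Hochberg adjusted p between 0.834 and 0.853 by Fisher's exact test). The odds ratio was 0.836 at 50 to 55% GC and between 1.08 and 1.14 in the other bands. Below 45% GC, 32% of 219 members (26.1 to 38.4) and 29.6% of 5635 other peaks (28.4 to 30.8) held a run. At 60% GC and above, the share was 11.1% of 234 members (7.70 to 15.8) and 10.1% of 109 other peaks (5.73 to 17.2). Both groups thus held fewer runs in GC-rich peaks, and the members included more such peaks.

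**Figure D1:**
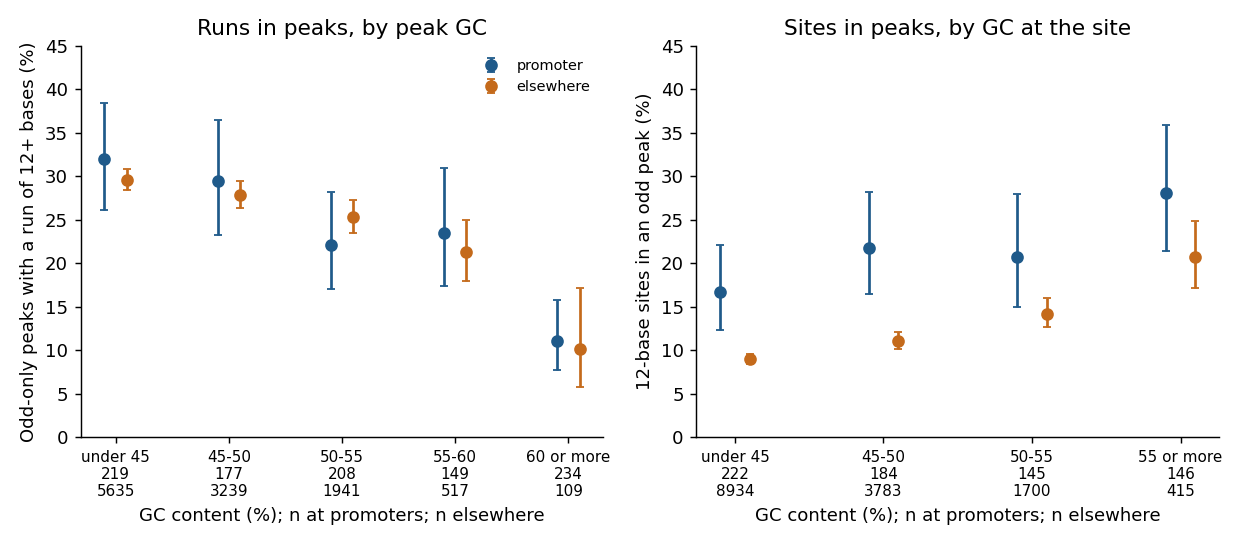
Share of odd-only peaks with an odd-probe run of 12 or more bases by GC content of the peak (left), and share of genomic sites with a longest run of exactly 12 bases that lay in an odd peak by GC content of 401 bp at the site (right), at promoters (blue) and elsewhere (orange), with 95% Wilson intervals. At the left the intervals of both groups overlap in every band, from 32% and 29.6% below 45% GC to 11.1% and 10.1% at 60% and above, whereas at the right the promoter value is above the other in each band.

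The 7 odd probes took unequal parts. Probe 7 accounted for 81 members (8.21%), probe 1 for 54, probe 9 for 43, probe 3 for 26, probe 5 for 22 and probe 11 for 5, and 2 members held runs of more than 1 probe. Runs of these probes were also unequally frequent on chromosomes 1 to 19. In the same order they numbered 5436, 3849, 4111, 4408, 368 and 1748, with 432 for probe 13. Of the other odd-only peaks, 7.41% held a run of probe 1, 4.42% of probe 9 and 3.49% of probe 3. For probes 11 and 13 these shares were 0.577% and 0.157%. Probe 13 gave no member, which allows up to 0.304%. Compared with the other odd-only peaks, the share of members with a run of probe 7 was lower (8.21% against 11%, adjusted p = 0.0190 over the 7 probes, Fisher's exact test) and that of probe 5 was higher (2.23% against 0.857%, odds ratio 2.64, adjusted p = 0.00152). The remaining probes did not pass the test, with adjusted p between 0.0583 and 1.0. The members with a run of probe 5 had a median GC content of 56.7%, against 48.1% for those of probe 7. Probe 5 is the probe whose letters match *Gm19619* incompletely, and without it 21.1% of the members held a run.

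Many members shared the letters of their longest run with another member. A probe of 19 or 20 bases offers only a limited number of 12-base stretches. Some sharing therefore follows from the definition of a run. No expected number of shared runs was computed, so the counts are given as a description only. Letters were compared in 224 of the 229 members with a run, and the other 5 were not used here. Among the 224, 184 had a longest run whose letters were also the longest run of at least 1 other member, and these came down to 49 sequences. Those found most often, in 13 members each, were 1 stretch of probe 1 and 2 of probe 7, here followed by a stretch of probe 7 found in 9.
probe 1, 13 members: AGGAGAGTGAAG
probe 7, 13 members: CTGAGCTGTGAG
probe 7, 13 members: GGGAACTGAGCT
probe 7, 9 members: GGAACTGAGCTG
The stretch of probe 1 was the longest run at *Ankrd1*, a repeat protein of muscle, *Dlk1*, an inhibitor of adipocyte differentiation, and *Slit2*, a guidance protein of axons. The first of probe 7 was that at *Cpt1b*, and the second that at *Calr* and *Igf2bp2*, an RNA-binding protein.

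Probe 5 also supplied a pair of related members. *Olfr403* and *Olfr43* are neighbouring odorant receptor genes on chromosome 11, and each peak contained the same 14 bases of probe 5 in a coding exon. Most of the surrounding letters are shared as well.
*Olfr403*, probe 5, chr11:74196148-74196177, minus strand: agactgtgGAAAAGACCCGGACataggaga
*Olfr43*, probe 5, chr11:74206542-74206571, plus strand: agactgtgGAAAAGACCCGGACgtaggaga
The pileup was 21 at *Olfr403* and 14 at *Olfr43*. Reads from such similar copies may not be placed with certainty, so these peaks may not be independent of each other.

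Runs were counted only inside the peak, so their distance from the summit was bounded by the length of the peak. No expected distance was computed, and the values are a description. Taken over all probes, runs had no preferred strand. The midpoint of the longest run was a median of 64.5 bp from the summit in the 229 members with a run, within 50 bp in 35.4% and within 100 bp in 72.9%, although the summit base itself fell inside the run in 5.24%. The letters of the probe read along the sense strand of the nearest gene in 115 of the 229 members (50.2%, 43.8 to 56.6). Counts by probe of the longest run were not tested, and no sense-strand share was computed for the other runs of each probe. The letters read along the sense strand in 52 of 81 members of probe 7 and 4 of 4 of probe 11. It was so for 22 of 54 of probe 1, 12 of 25 of probe 3, 7 of 22 of probe 5 and 18 of 43 of probe 9.

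The height of a member rose with its longest run, as a description since height was part of the rule. The median pileup was 10 for the 506 members without a run of 10 bases, 12 for the members whose longest run had 10, 11 or 12 bases, 14 for 13 bases (n = 68), 17 for 14 bases (n = 27) and 22.5 for the 6 members with 15 or 16. The other odd-only peaks went through nearly the same medians, from 10 to 20. The median length of the members was also larger with longer runs, from 239 bp without a run of 10 bases to 566 bp with 15 or 16. Heights were not compared at equal peak length. Across members, Spearman's rho between the longest run and the pileup was 0.245, that between peak length and pileup was 0.709, and that between GC content and pileup was 0.0670. All of these points come from 1 library.

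**Figure D2:**
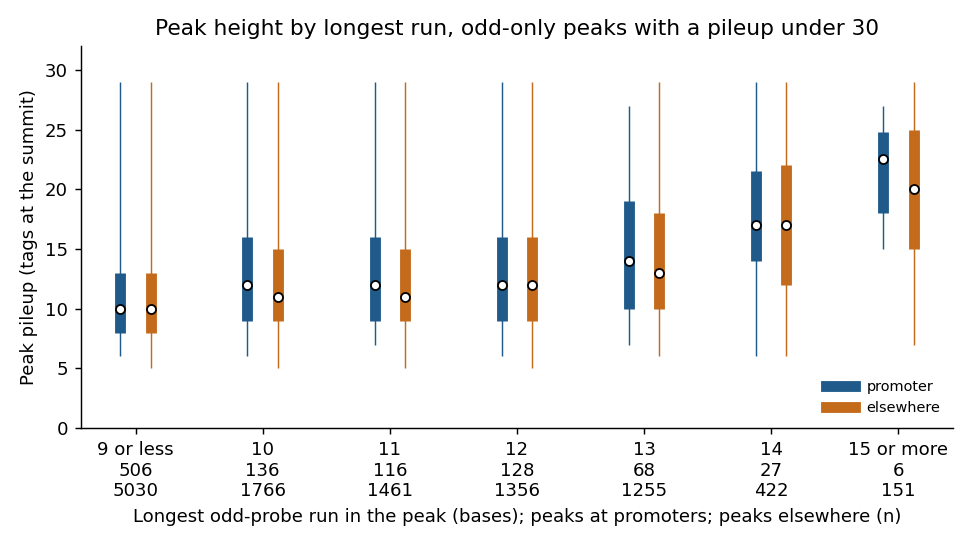
Pileup at the summit against the longest odd-probe run in the peak, for members (blue) and other odd-only peaks (orange). White points are medians, thick bars span the quartiles, thin lines reach from the lowest to the highest peak, and numbers of peaks are given below each class. The medians of the members go from 10 without a run of 10 bases to 22.5 at 15 bases or more, and the ranges overlap widely.

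The height limit cut through a continuous range. Over all members the pileup ran from 6 to 29 with a median of 11 (quartiles 9 and 15), the fold enrichment over the library's genome-wide background from 4.62 to 19.8 with a median of 7.91, and the length from 200 to 1021 bp with a median of 267 bp. The other odd-only peaks had the same median pileup and fold enrichment and a median length of 266 bp. Just inside the limit, 9 members stood at a pileup of 29. Just outside it, 6 peaks stood at 30, among them those at *Mcm3*, a subunit of the replicative helicase without a run of 12 bases, and at *Capn7*, a calpain protease gene with a run of 15. In all, 98 odd-only promoter peaks were at or above the limit, up to a pileup of 81, and 44.9% of them held a run. At the distance limit, the 82 members at 900 to 1000 bp had a median pileup of 10 and held a run in 24.4%, while the 74 peaks at 1001 to 1100 bp had a median of 11 and held a run in 29.7%.

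The 9 members at a pileup of 29 and the member ranked next, at 28, were of mixed kinds. *Aox3*, a liver aldehyde oxidase, had a 528-bp peak at chr1:58113522-58114049 whose summit lay in an intron 523 bp past the nearest start, with 14 bases of probe 3. *Calr*, the calcium-binding chaperone calreticulin, had a 780-bp peak at chr8:84844557-84845336 with 12 bases of probe 7, close to an internal start. Its summit lay 1905 bp from the gene's first start. *Sema6c*, a transmembrane semaphorin, and *Snx7*, a sorting nexin, each held 12 bases, of probes 7 and 1.
*Aox3*, probe 3, chr1:58113654-58113683, minus strand: tgtgcataCATGTGAAAGCAGAagttgggt
*Calr*, probe 7, chr8:84845110-84845139, plus strand: gtgagtgctGGGAACTGAGCTtgtgttctc
*Snx7*, probe 1, chr3:117869223-117869252, plus strand: ggtttgtgcGTGAAGTGGCAGgatctatat
Runs of 11 bases were found at *Eme2*, a subunit of a DNA-repair endonuclease, at *Gimap9*, a GTPase of lymphocytes, at *Utp20*, a factor of ribosome assembly, and at *Cfap221*, a protein of motile cilia. *Gal*, which encodes the neuropeptide galanin, held 10 bases. *Cfdp1*, a gene of craniofacial development, held no run of 10 bases at all in a peak of 845 bp. Thus 4 of these 10 members passed the 12-base criterion.

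Of the members, 758 (76.8%) held no run of 12 bases of an odd probe and 506 (51.3%) held none of 10. The highest of these were *Cfdp1* with a pileup of 29 and, at 27 each, *Banp*, a nuclear matrix-associated protein, *Chfr*, a ubiquitin ligase of the mitotic checkpoint, *Ube2h*, a ubiquitin-conjugating enzyme, the zinc finger gene *Zfp263* and the predicted gene *Gm10762*, which shares its start region with *Zc3h6*. Their best alignments without gaps to an odd probe, within 100 bp of the summit, are shown for the 3 highest matches, with identical bases in capitals.
*Zfp263*, probe 9, chr16:3744303-3744322, minus strand: CccTGGGTTCTGtACAGCag
*Cfdp1*, probe 9, chr8:111853948-111853967, minus strand: gTgTcGGTTCTGcAtAGCTg
*Ube2h*, probe 7, chr6:30242960-30242979, plus strand: GGGAAtaaAGaTGTGtGAca
These had 15, 14 and 13 matching bases out of 20. The peak at *Ube2h* also held a run of 10 bases of an even probe. The median of the best odd match was 13 bases in the 506 members without a run and 12 bases in windows at all first starts without one. The best odd match exceeded the best even match in 78.4% of those members that were not tied (73.8 to 82.3), beside 72.4% of all such starts (71.6 to 73.2). A preference for the odd probes was thus also present at promoters in general, and the even-only promoter peaks gave 52.5% for their own set (40 to 64.7).

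Within the 1000 bp allowed by the rule, summits were more frequent close to the starts. Distance was part of the rule and was taken to the nearest of all annotated starts. No background of other positions was computed, so the distances are a description only. Of the members, 20.1% had the summit within 100 bp, 38.7% within 250 bp and 62.5% within 500 bp, and the median distance was 370 bp. Both sides were about equally occupied, with 48.0% of the summits upstream of or at the start and 52.0% downstream. Bins of 200 bp held 167 members just upstream and 160 just downstream of the start, and 68 and 75 at the outer ends. The median GC content was 58.5% and 59.8% in the central bins, and 47.1% and 48.8% in the outermost ones.

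**Figure D3:**
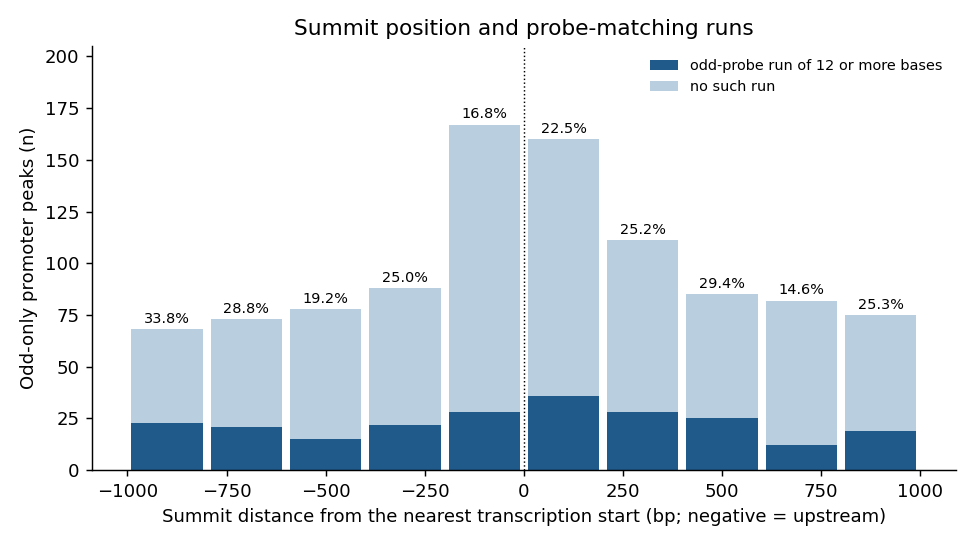
Number of members by distance of the summit from the nearest transcription start, in bins of 200 bp, with the members that hold an odd-probe run of 12 or more bases in dark blue and their share above each bar. The bins next to the start hold 167 and 160 members, and the share with a run ranges from 14.6% to 33.8% without an even course.

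The label of promoter held for only part of the members in the strict sense. In 528 members (53.5%, 50.4 to 56.6) the summit lay within 1000 bp of the 5′-most start of the nearest gene, whereas the other 459 lay at starts of shorter transcripts further inside the gene. By position, 477 summits (48.3%) were in introns, 212 (21.5%) outside the transcripts of protein-coding genes, 122 (12.4%) in 5′ UTRs, 106 (10.7%) in coding exons, 53 in other exons and 17 in 3′ UTRs. Members at the 5′-most start had a median GC content of 55.4% and held a run in 20.5%, and those at other starts had 50% and 26.4%. Both groups had a median pileup of 11. When only the 5′-most starts were used for the selection, 533 peaks were left.

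CpG content differed between the members, the other odd peaks and promoters in general. The windows compared were not placed alike. Those of members were centred on summits, a median of 370 bp from a start, and those of genes on the first start. The other odd-only peaks lay more than 1000 bp from any such start by the rule. The differences are therefore a description only. In the 401 bp around the summit, 25.2% of the members (22.6 to 28.0) were CpG-rich, defined by at least 50% GC and an observed-to-expected CpG ratio of at least 0.6. The value was 0.428% for other odd-only peaks, 14.5% for even-only promoter peaks (10.0 to 20.6) and 48.8% for the first starts of all protein-coding genes. The CpG-rich members lay closer to the start (median 132 bp against 472 bp) and held a run less often (11.2%, 7.90 to 15.8, against 27.2%, 24.1 to 30.6). Their median pileups were 12 and 11.

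Several sequence elements of promoters followed the same order, in the same windows and with the same limits. The GC box GGGCGG, bound by SP and KLF factors, was found on either strand in 29.7% of the windows of members, 4.48% of those of other odd-only peaks and 50.4% of all first starts. For the ETS core CCGGAAG these values were 5.67%, 1.28% and 13.3%, for the CREB core TGACG 20.3%, 11% and 28.6%, and for the full cyclic AMP response element TGACGTCA, which contains that core, 0.912%, 0.219% and 2.51%. The E-box CACGTG of CLOCK and USF was found in 6.48%, 4.55% and 8.99%. TATAAA was found in 13.1% of the members, close to 13.6% of all starts and below 26.6% of the other odd-only peaks. CCAAT (38.4%, 43.8% and 42.5%), the YY1 core AAGATGG (7.70%, 9.86% and 8.63%) and the AP-1 site TGANTCA (9.73%, 11.3% and 7.68%) differed less between the groups. The repeat GAGAGAG was found in 16.9%, 17.4% and 13.5%. A match of letters does not show that a factor was bound.

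A separate question was whether a probe-matching site was more likely to be recovered when it lay at a promoter. For this, all sites with a run of at least 12 bases on chromosomes 1 to 19 outside *Gm19619* were counted, whether or not they were in a peak, and all odd peaks were used irrespective of height. Of the odd-probe sites with a longest run of 12 bases, 148 of 697 within 1000 bp of a start (21.2%, 18.4 to 24.4) and 1547 of 14832 elsewhere (10.4%, 9.95 to 10.9) lay in an odd peak, with an odds ratio of 2.32 (adjusted p = 4.4e-15, two-sided Fisher's exact test over the 8 tests of both probe sets). With 13 bases the shares were 48.7% of 191 and 37.8% of 3640 (odds ratio 1.56, Fisher's exact test, adjusted p = 0.00768). With 14 bases they were 87.2% of 39 and 73.6% of 693 (exact test, adjusted p = 0.0976), and with 15 or more all 14 promoter sites and 98.3% of 231 others were in a peak (adjusted p = 1.0). The even probes gave lower shares with the same order for short runs, 6.15% against 2.45% with 12 bases (odds ratio 2.61, exact test, adjusted p = 3.5e-05) and 16.1% against 8.26% with 13 bases (adjusted p = 0.0126, and p = 0.0737 with only the 5′-most start of each gene), but not for 14 bases (13% of 23 against 22.6% of 712, adjusted p = 0.592). Of the 697 odd-probe promoter sites with 12 bases, 2 lay in an even peak (0.287%), against 14 of the 14832 elsewhere (0.0944%). With 15 or more bases, 4 of 14 promoter sites (28.6%) and 9 of 231 others (3.90%) lay in an even peak. These differences were not tested.

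The share of 12-base sites of the odd probes was lower beyond 1000 bp from the start. It was 22.7% within 250 bp (17.6 to 28.7), 24.5% at 251 to 500 bp (18.6 to 31.7), 18.6% at 501 to 1000 bp (14.7 to 23.2), 11.4% at 1001 to 5000 bp (10.0 to 12.9) and 9.29% beyond 50000 bp (8.61 to 10.0). The intervals of the first 3 classes overlap one another, and none of them reaches those beyond 1000 bp. At 1000 bp no such step was seen for 13-base sites of the odd probes (44.4% at 501 to 1000 bp and 46.4% at 1001 to 5000 bp). The same held for 12-base sites of the even probes (4.01%, 2.26 to 7.04, and 4.45%). Closer to the start the even share was higher, 9.17% within 250 bp (5.20 to 15.7) and 8.18% at 251 to 500 bp (4.36 to 14.8), with overlapping intervals. GC content moved with this result as well. Outside promoters the share in a peak was 8.95% for sites under 45% GC and 20.7% for those at 55% or more. Within bands of GC content, added after the data were seen, promoter sites were more often in a peak under 45% (16.7% against 8.95%, adjusted p = 0.00133) and at 45 to 50% (21.7% against 11.1%, adjusted p = 0.00038, Fisher's exact tests). The difference did not pass the test at 50 to 55% (20.7% against 14.2%, exact test, adjusted p = 0.133) and at 55% or more (28.1% against 20.7%, adjusted p = 0.135). For the even probes it passed in none of the 4 bands (Fisher's exact tests, adjusted p from 0.135 to 0.686).

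**Figure D4:**
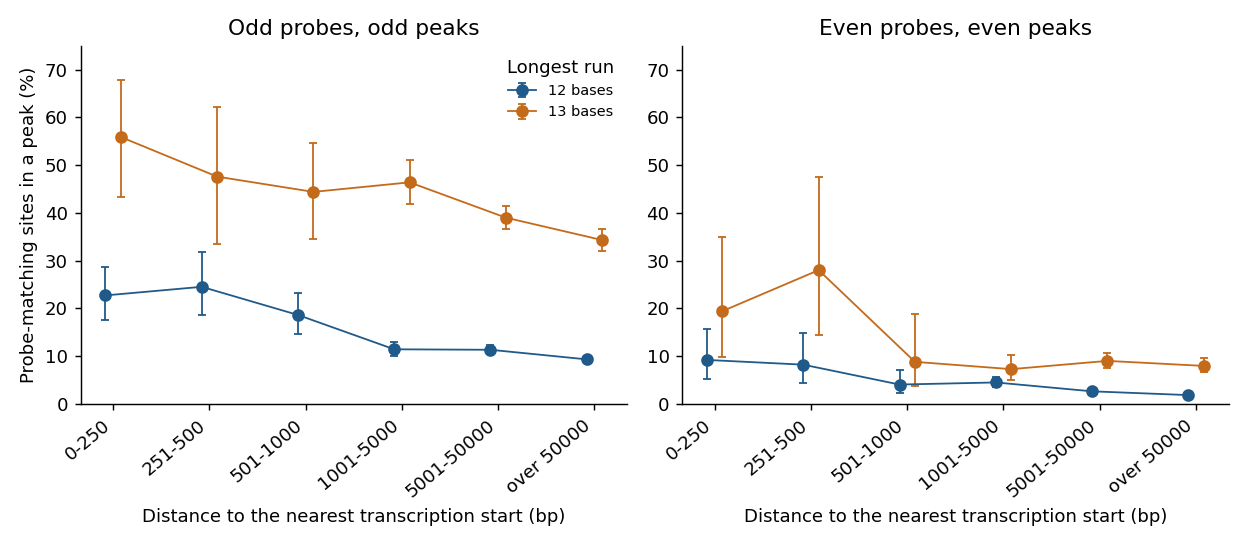
Share of genomic probe-matching sites that lay in a peak of the same probe set against distance from the nearest protein-coding transcription start, for longest runs of 12 (blue) and 13 bases (orange), with 95% Wilson intervals. With 12 bases the odd shares go from 22.7% within 250 bp to 9.29% beyond 50000 bp, and the even shares from 9.17% to 1.80%.

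At the level of genes, 1008 of 20807 protein-coding genes (4.84%) had a member within 1000 bp of one of their starts. Most members (930) lay at a single gene, 53 at a pair and 4 at 3 or more, while 48 had starts on both strands within reach. An odd-probe run of 12 bases lay within 1000 bp of a start in 922 genes, and 29.3% of these had a member (26.4 to 32.3), compared with 3.71% of the other 19885 genes (3.46 to 3.98). An even-only promoter peak was present at 168 genes (0.807%). Both kinds were present at 14 genes, 1.39% of the genes with a member and 8.33% of those with an even-only promoter peak. They included *Por*, the reductase that supplies electrons to microsomal cytochromes P450, *Cyp2r1*, a vitamin D 25-hydroxylase, and *Mecom*, a zinc finger transcription factor. An even peak within 1000 bp of the edge was found for 13 members, and the median distance from a member's summit to the nearest even summit was 236271 bp.

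There were 37 genes with more than 1 member, and 3 genes had 3 members each. At *Eif4g1*, the scaffold of the translation initiation complex, the pileups were 10, 8 and 25. At *Esyt2*, an extended synaptotagmin of membrane contact sites, they were 25, 18 and 7. At *Mroh2a*, a gene of HEAT-repeat proteins, they were 7, 14 and 12. Of these peaks only that with a pileup of 25 at *Esyt2* held a run of 12 bases, from probe 5.

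The lists of genes of hepatic metabolism are read against 4.84% of all protein-coding genes, and the interval of each list that held a member included that value. None of 34 genes of insulin, glucagon and gluconeogenesis had a member, which allows up to 8.82%. The list of leptin receptor signalling had 3 of 28 (10.7%, 3.71 to 27.2). This list was taken up because the study drew that pathway from these libraries, so its count is not independent evidence. The genes were *Stat5b*, a transcription factor activated by cytokine receptors, *Plcg2*, a phospholipase C, and *Map2k2*, a kinase of the ERK cascade. The pileups were 8, 13 and 13. None of the 3 held a run of 12 bases. The peaks of *Stat5b* and *Map2k2* lay at internal starts, with their summits 28143 and 23227 bp from the first one.

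Among genes of lipid metabolism, 3 of 66 had a member (4.55%, 1.56 to 12.5). The peak at *Srebf1*, the master regulator of lipogenesis, at chr11:60207054-60207499 reached a pileup of 21 with no run of 10 bases. It lay at an internal start, with its summit 15352 bp from the first one. The peak at *Cpt1b*, the muscle-type carnitine palmitoyltransferase, reached 16 and lay 115 bp upstream of the gene's first start. The peak at *Apoa1*, the main apolipoprotein of HDL, reached 9 with the summit in a coding exon 593 bp from the first start. The last pair each held 12 bases of probe 7, at different places along that probe.
*Cpt1b*, probe 7, chr15:89425784-89425813, minus strand: gaagcaaacCTGAGCTGTGAGttggggacc
*Apoa1*, probe 7, chr9:46229344-46229373, plus strand: gaagatgctGGAACTGAGCTGgctagccct
The run at *Cpt1b* was centred 179 bp and that at *Apoa1* 185 bp from the summit, both further than the median of 64.5 bp.

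Of the nuclear receptors, 4 of 47 had a member (8.51%, 3.36 to 19.9). *Nr1d2*, a repressor of the circadian system, had a pileup of 23 without a run of 10 bases, 25992 bp inside the gene. *Rora*, which activates clock genes, had 21 with 12 bases of probe 7. Its peak lay at an internal start, with the summit 635684 bp from the first one. *Hnf4a*, a regulator of hepatocyte identity, had 11, with the summit 640 bp past the first start, and *Rara*, a retinoic acid receptor, had 9 with 12 bases of probe 7.
*Rora*, probe 7, chr9:69289532-69289561, plus strand: aagggttctGGAACTGAGCTGaaagaggca
*Rara*, probe 7, chr11:98959661-98959690, minus strand: gacacggcaGAACTGAGCTGTtagcacaaa
The run in *Rora* has the same 12 letters as that in *Apoa1*, and the run in *Rara* overlaps them on the probe.

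The list of cyclic AMP and phospholipase C had 4 of 52 genes with a member (7.69%, 3.03 to 18.2). *Pde4c*, a phosphodiesterase that degrades cyclic AMP, had the highest of these peaks with a pileup of 24, in the 5′ UTR and without a run of 10 bases of an odd probe. Its longest run of an even probe had 11 bases, a length reached in 8 of the 987 members (0.811%). *Pde7a*, another phosphodiesterase of cyclic AMP, had 2 members. That at an internal start had a pileup of 11 and 13 bases of probe 9, and that 255 bp upstream of the first start had a pileup of 7 and no run, in a sequence with 80% GC. *Adcy7*, an adenylyl cyclase, had a pileup of 9, and *Plcg2* is described above.
*Pde7a*, probe 9, chr3:19265541-19265570, minus strand: aggctttgtTTCTGGACAGCTCattcgctc

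Of 38 hepatocyte genes, 3 had a member (7.89%, 2.72 to 20.8). Of these, *Cyp1a2*, a cytochrome P450 of drug metabolism, had 2 members with pileups of 12, at 488 bp upstream of the first start, and 8, at 2017 bp inside the gene. Neither held a run of 12 bases.
No member lay at the 31 markers of other liver cell types or at the 15 genes of the circadian clock list, in which *Nr1d2* and *Rora* were not counted, which allows up to 9.68% and 20%.

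The larger gene families were unevenly represented. Odorant receptor genes named *Olfr* had 18 of 1127 genes with a member (1.60%, 1.01 to 2.51), with an interval below the background of all genes. Of their 39 genes with an odd run near a start, 6 had a member. Zinc finger genes named *Zfp* had 22 of 385 (5.71%, 3.80 to 8.5), with 7 of 16 genes that had a run near a start. Mitochondrial ribosomal proteins had 7 of 78 (8.97%, 4.42 to 17.4), cytosolic ribosomal proteins 1 of 76, *Rpl5*, replication-dependent histones 1 of 67, *Hist1h2bg*, and proteasome subunits 0 of 39, which allows up to 7.69%. The highest of the mitochondrial ribosomal peaks was that at *Mrpl21* with a pileup of 21, 64 bp upstream of its first start.

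**Figure D5:**
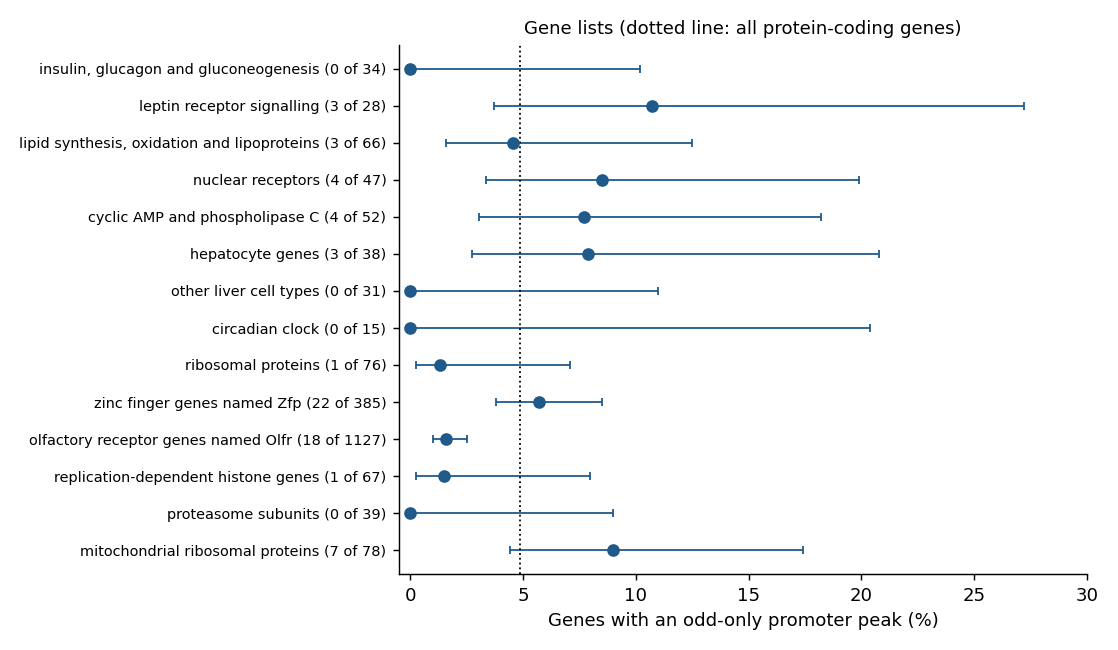
Share of genes with a member in each of 14 gene lists, with 95% Wilson intervals and the counts beside each name. The dotted line marks 4.84%, the share of all protein-coding genes, and the interval of the odorant receptor genes (1.01 to 2.51) lies below it while those of the metabolic lists include it.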

How the data were processed

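ChIRP-seq reads of the odd and the even library were aligned to mm10 by the authors (Novoalign 4.02.02 and SAMtools 1.9, per the submitters' notes), and per the file headers they called peaks separately for both libraries (MACS2 2.1.1.20160309), with no control, 1 tag kept per position, tags of 101 bp extended to 200 bp and a q-value limit of 0.05. The deposited pileup is a signal in tags at the summit, not scaled between libraries. Fold enrichment, as deposited, is the ratio of this signal to a single genome-wide background. The deposited −log10 p and −log10 q columns had damaged headings and were identified by their order. In the even list, 1 start was restored from its end and length. Since no control entered the calling, places where reads pile up in every library were not removed.

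The members were chosen with earlier results of these data known, as were the gene lists and motifs. Groups come from the labels. From the files, distances to GENCODE vM21 starts, probe runs on both strands of GRCm38 (scanned from 10 bases, counted from 12), GC content, motifs in 401 bp and Fisher's exact tests with Benjamini-Hochberg adjustment were computed in Python 3.11.15, NumPy 2.4.6, pandas 2.3.3 and SciPy 1.17.1. Figures were drawn in Matplotlib 3.10.9. Shares have 95% Wilson intervals, and a count of 0 allows up to 3. Probe letters used for the search came from the study's supplement, and those printed were read from the genome. Scripts were tested on simulated data. Named genes are the 10 highest members, the 6 with the longest runs, the 6 highest without a run of 10 bases, all members at genes of the 6 metabolic lists, and those at the limits of the rule, some of which are not reported here. *Vamp5*, *Ankrd1*, *Dlk1*, *Slit2*, *Igf2bp2*, *Por*, *Cyp2r1*, *Mecom*, *Eif4g1*, *Esyt2*, *Mroh2a* and the genes of the larger families were named after their values were seen. Alternatives were other run lengths, distances, transcripts and peak thresholds. Bands of GC content, first starts alone, only probes with an exact site for the comparison of promoter with other peaks, and all alternatives for even-only promoter peaks were added after the data were seen. Peaks on the sex chromosomes did not enter the comparisons.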

Additional observations from a re-analysis of the deposited data

Results flagged for a closer look

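On the X chromosome, which lies outside the chromosomes compared, 20 odd-only peaks met the other conditions on height, distance and overlap, with a median pileup of 9.5. They stand out only because the comparisons did not use them, and no control library gives a level to set them against.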

How the results depend on the processing

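No paired analysis was possible because each probe set has 1 library, and the replicate numbers only name the samples. The number of members depended most on the definitions. It was 617 with 500 bp, 1555 with 2000 bp, 652 with transcripts of the basic tag, 533 with the first start of each gene alone and 278 with a fold enrichment of at least 10, and it stayed within 1.5 times of 987 under the other 5 settings tried. Genes with a member numbered 634 with 500 bp, 1569 with 2000 bp and 296 above that fold enrichment. The share of members with an odd run was 48.7%, 35.0%, 10.2% and 3.34% for runs of at least 10, 11, 13 and 14 bases, 34.2% above the same fold enrichment and 20.5% with first starts alone. The lower run share of members against other odd-only peaks held under 12 settings of run length, threshold, distance, search window, probes and starts. Within bands of GC content it passed the test in none. The odds ratio there was 1.12 under 45%, 1.08 at 45 to 50%, 0.836 at 50 to 55%, 1.14 at 55 to 60% and 1.11 at 60% or more. The higher share of 12-base promoter sites of the odd probes in a peak kept its direction in all settings and lost significance within bands at 50 to 55% GC (odds ratio 1.57) and at 55% or more (1.49). For the even probes the 12-base difference kept its direction in every band (odds ratios from 1.18 to 2.01) but lost significance. Each band held only 6 to 10 promoter sites of these probes in a peak. The 13-base difference lost significance with first starts alone (odds ratio 2.33). After duplicates, 11.4% of odd and 10.7% of even reads remained, and the effect of depth on peaks of low pileup was not tested.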
